A study of Mus musculus with 6 samples.

Results

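The genes described here are the mouse C-type lectin genes whose array name is Clec followed by a digit, 31 genes measured by 38 of the 39429 gene probes on the array. Each gene was read by its brightest probe. Of the 31, 26 passed the filter on dim probes and were tested among 22097 genes. The other 5 were Clec4a2, Clec2h, Clec2l, Clec3a and Clec18a, which were well above background on at least 2 of 3 arrays in no tissue and channel. Passing took a signal in only 1 of the 4 combinations of tissue and channel, and 9 of the 26 passed in fewer than all 4.

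The RNA was that of M-MDSCs, the monocytic form of myeloid-derived suppressor cells, which resemble immature monocytes and restrain T cells. They were sorted by flow cytometry from the lungs or the bone marrow of C57BL/6 mice. Treated RNA was from mice given azacytidine, which blocks DNA methyltransferases, and entinostat, which blocks histone deacetylases of class I, with cells of 3 to 6 mice pooled per preparation. Mock RNA was from vehicle mice, with cells of 1 to 2 mice per preparation and a stated mouse age of 6 to 8 weeks. On each of 6 two-colour arrays, 3 per tissue, treated RNA in Cy5 met mock RNA in Cy3, so that each array gave a treated over mock ratio. Because no array had the dyes exchanged, dye and treatment cannot be told apart, and because the lung and marrow arrays were on separate slides and scans, tissue and slide cannot be told apart.

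C-type lectins bind sugars, lipids or proteins through a shared fold, and on myeloid cells many act as receptors for fungi, bacteria and dead cells. Activating members such as dectin-1 and dectin-2 signal through an ITAM-type tyrosine motif, their own or that of the adaptor FcRγ, to the kinase Syk and on to the Card9, Bcl10 and Malt1 complex. Inhibitory members such as DCIR carry an ITIM and recruit the phosphatases Shp1 and Shp2. The Clr proteins are instead ligands, seen by NKR-P1 receptors of natural killer cells.

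Of all spots, 55.1% to 69.5% were well above background in treated RNA and 49.9% to 62.8% in mock RNA, and no spot was saturated. Of the monocyte markers, 7 of 7 tested were well above background on all arrays in both dyes, among them Ly6c1 and Ccr2. Genes of other cell types were measurable in the sorted cells as well, and in lung 10 of 10 macrophage markers and 7 of 8 endothelial markers rose with treatment. Of 9 neutrophil markers 6 rose in lung, but 3 without lung replicate 1, 2 without lung replicate 2 and 0 with scaling between arrays. In bulk RNA a change in the number of cells of a type and a change in RNA per cell cannot be told apart. The number of arrays, 3 per tissue, limits the precision of every value.

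Most of these genes lie in gene clusters. By the probe positions of the files (mm9), 23 of the 31 genes were on chromosome 6. The 9 genes of the dectin-2 cluster spanned 348.4 kb, from Clec4a1 at chr6:122884578-122884637 to Clec4e at chr6:123232878-123232937. The 6 genes of the dectin-1 cluster spanned 96.9 kb, from Clec12a at chr6:129314880-129314939 to Clec7a at chr6:129411739-129411798. The exon of each probe was not analysed here. Probes of different members shared a run of at most 12 bases of 60 in 695 pairs of probes. Whether transcripts of close relatives also bound a probe was not tested.

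Promoter sequence was read from RefSeq (GRCm38.p6, 250 bases before to 50 after a start), in which 25 of the 31 genes had 28 promoters. The letters GAGGAA, the core of the site of PU.1, a transcription factor of myeloid cells, were searched on both strands. They stood in 16 of the 28 member promoters, or 57.1%, against 28.3% of 32851 promoters of all genes. They were in 6 of 7 matched genes of the dectin-2 cluster, 2 of 5 of the dectin-1 cluster, 2 of 6 of the Clr family, 0 of 2 of the asialoglycoprotein receptor type, Clec5a and 4 of 4 others. CG dinucleotides numbered 4 per member promoter at the median, against 7 over all promoters. Such a match is a description of these letters, not a bound site. Shown are the 250 bases before the start, 5′ to 3′ on the plus strand, of Clec4a1 and Clec4a3, both lower in treated marrow, and of Clec4b1, their neighbour, which was higher in treated lung. Capitals mark GAGGAA or its reverse complement, and for Clec4a3 the second of its 2 starts is shown, as the window of the other start held no match.
Clec4a1, chr6:122921598-122921847: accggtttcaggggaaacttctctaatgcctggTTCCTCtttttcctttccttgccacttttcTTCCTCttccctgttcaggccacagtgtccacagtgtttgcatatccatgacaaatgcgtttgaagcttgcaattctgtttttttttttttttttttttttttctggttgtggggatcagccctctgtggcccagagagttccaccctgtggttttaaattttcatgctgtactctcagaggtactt
Clec4a3, chr6:122952394-122952643: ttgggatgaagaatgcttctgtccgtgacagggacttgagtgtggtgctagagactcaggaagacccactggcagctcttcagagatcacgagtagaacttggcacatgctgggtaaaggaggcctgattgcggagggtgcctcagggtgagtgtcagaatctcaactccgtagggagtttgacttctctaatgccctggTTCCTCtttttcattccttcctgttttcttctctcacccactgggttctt
Clec4b1, chr6:123049712-123049961: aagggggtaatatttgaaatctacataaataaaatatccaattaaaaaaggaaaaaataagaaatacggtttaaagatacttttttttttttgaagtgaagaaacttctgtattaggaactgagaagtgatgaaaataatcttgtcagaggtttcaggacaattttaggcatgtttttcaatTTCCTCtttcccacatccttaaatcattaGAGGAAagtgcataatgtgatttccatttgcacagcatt
The Clec4a3 window was chosen for its match, and runs in other pairs of promoters were not compared. Among the windows shown, Clec4a1 and Clec4b1 shared at most 12 bases and Clec4a3 and Clec4b1 at most 9. The longest identical run of Clec4a1 and Clec4a3 was 17 bases long and included a match.
Shared run: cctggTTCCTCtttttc

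In treated lung cells, 12 of the 26 Clec genes passed limma's test at an adjusted p under 0.05, 9 of them higher and 3 lower than in mock lung cells. Over all genes tested, 34.0% were called in lung, 20.0% as higher and 14.0% as lower. In treated marrow cells 4 of the 26 passed, 2 higher and 2 lower, against 14.4% of all genes, 7.25% as higher and 7.14% as lower. The median log2 ratio of the 26 genes was 0.27 in lung and 0.08 in marrow, and that of all genes 0.01 in lung and 0.02 in marrow. Changes above 2-fold were called for 4 genes in lung, all higher, and for 2 in marrow, both lower. Replacing loess, the correction of dye bias by intensity, with median centring ended all 4 calls in marrow and 7 of the 12 in lung. The 5 calls that stayed were Clec4b1, Clec4n, Clec1b, Clec4f and Clec14a in lung. With median centring the median of all genes itself moved to 0.12 in lung and 0.20 in marrow, and the calls over all genes dropped to 964 in lung and 0 in marrow.

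**Figure D1:**
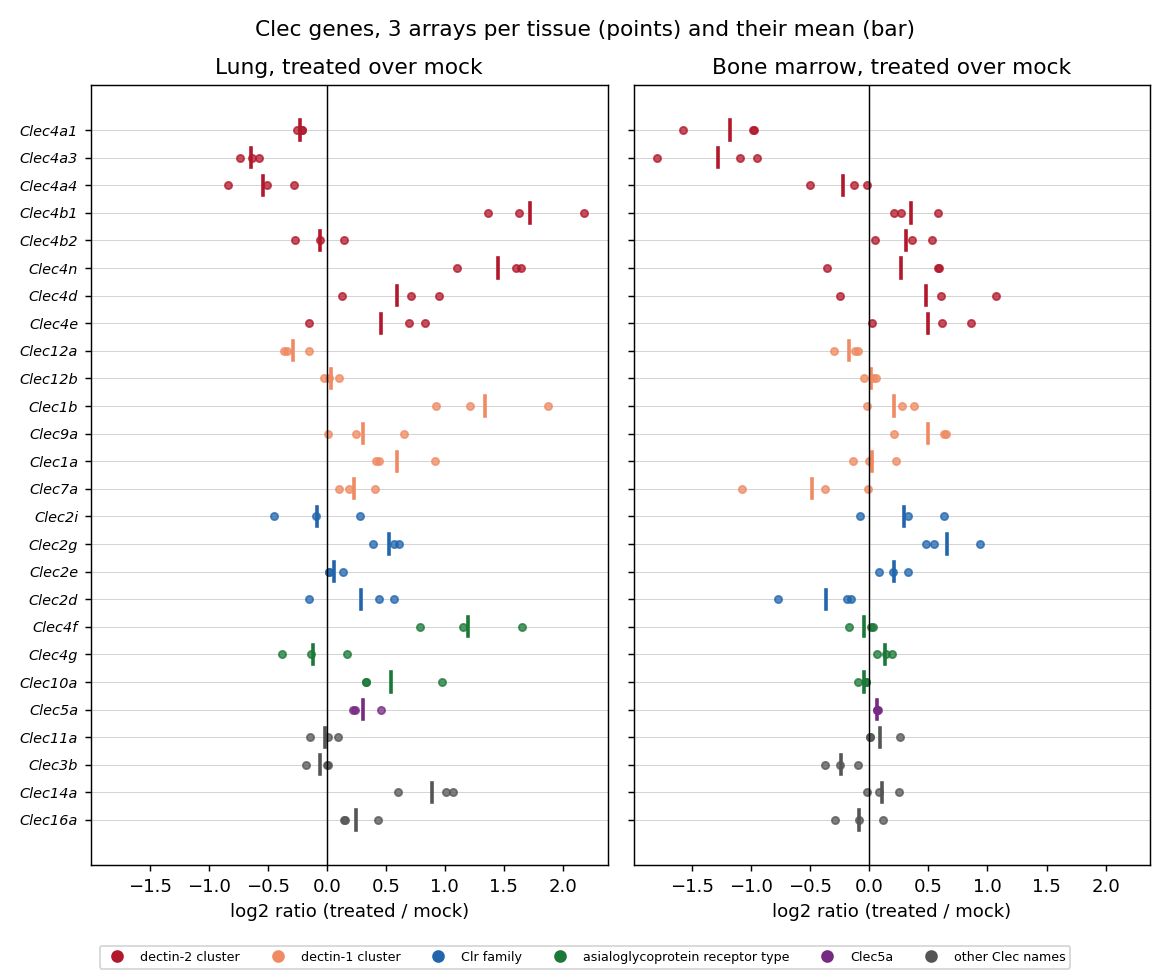
Log2 ratio of treated over mock for the 26 tested Clec genes, in lung and bone marrow. Points are the 3 arrays of a tissue, bars their mean, colours the group of genes. In lung Clec4b1, Clec4n, Clec1b and Clec4f lie furthest to the right, and in marrow Clec4a1 and Clec4a3 furthest to the left.

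Within the dectin-2 cluster, calls in treated lung went in both directions. Of its 8 tested genes, 2 rose and 2 fell in treated lung, and 2 fell and 0 rose in treated marrow. Over all genes tested, 20.0% rose and 14.0% fell in lung, and 7.25% rose and 7.14% fell in marrow. Each of the 2 lung falls was lost without 1 of the lung arrays. The cluster's median log2 ratio was 0.20 in lung and 0.29 in marrow.

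Clec4a1 and Clec4a3, of the DCIR subfamily, were lower in treated marrow. The log2 ratios of Clec4a1 in marrow were -0.99, -0.98 and -1.58 on the 3 arrays, a mean of -1.18 ± 0.35 (SD, n = 3) and 0.441 times the mock level, with limma's adjusted p = 0.00233. In lung they were -0.25, -0.21 and -0.21, a mean of -0.22 ± 0.03 (limma's adjusted p = 0.18). All lung values of Clec4a1 lay above all marrow values, and the difference of 0.96 between the tissues passed limma's test (adjusted p = 0.0103). The lung ratio of Clec4a1 passed when bone marrow replicate 3 was left out (adjusted p = 0.0205) and in a separate fit of the lung arrays (adjusted p = 0.0424). For Clec4a3 the marrow values were -1.09, -0.95 and -1.80, a mean of -1.28 ± 0.45 or 0.411 times the mock level (adjusted p = 0.00346). In lung Clec4a3 measured -0.73, -0.63 and -0.57, a mean of -0.65 ± 0.08 (adjusted p = 0.0129). All 6 arrays showed less Clec4a3 in treated cells, and bone marrow replicate 3 was the lowest for both genes. The lung call was lost without lung replicate 2 (adjusted p = 0.0553) and after arrays were scaled to each other (adjusted p = 0.0874), and the tissue difference of 0.64 did not pass (adjusted p = 0.0792).

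Clec4a4 encodes DCIR2, an ITIM-bearing receptor of dendritic cells. Its lung ratios were -0.84, -0.27 and -0.50, a mean of -0.54 ± 0.28 (SD, n = 3) with limma's adjusted p = 0.0139, and its marrow mean was -0.22 ± 0.26 (adjusted p = 0.262). All 6 values were below 0 and the tissues overlapped. Without lung replicate 1 the lung call was lost (adjusted p = 0.0576). Clec4a2, the gene of DCIR itself, was not well above background.

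In marrow the fall of Clec4a1 and Clec4a3 stood beside lower values of some monocyte genes. Of the 7 tested monocyte markers 3 fell and 1 rose in treated marrow, with a median log2 ratio of -0.52. Csf1r, the receptor of the growth factor of monocytes, fell by 1.14 and Cx3cr1, a chemokine receptor of patrolling monocytes, fell by 1.71 on the log2 scale, both named after their values were seen. Ccr2 also fell in treated marrow, by 0.84 on the log2 scale, and Ly6c1 rose by 0.65. These last 2 calls were lost without any 1 marrow array (limma's adjusted p of 0.0517 to 0.162), whereas those of Csf1r and Cx3cr1 passed whichever array was left out. The summed intensity of the list, in normalised array units, was 130169 to 152973 in treated marrow and 130783 to 139264 in mock marrow. Their part in the lectin result was not tested.

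Clec4b1 and Clec4n rose in treated lung. Clec4b1 encodes DCAR, an activating receptor that pairs with FcRγ. Its log2 ratios in lung were 2.18, 1.37 and 1.63, a mean of 1.73 ± 0.42 (SD, n = 3) or 3.31-fold, with limma's adjusted p = 0.00024. In marrow they were 0.21, 0.58 and 0.27, a mean of 0.35 ± 0.20 (adjusted p = 0.142). The groups of values did not overlap, and the difference of 1.37 passed (adjusted p = 0.00666). The marrow ratio of Clec4b1 passed without lung replicate 1 (adjusted p = 0.0397) and after arrays were scaled to each other (adjusted p = 0.0398). A second probe of Clec4b1, at chr6:123015995-123016054 (mm9), measured 1.12 ± 0.44 in lung and -0.07 ± 0.06 in marrow, so that the lung values of both probes were high and their marrow means differed in sign.

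Clec4n encodes dectin-2, a receptor for fungal mannans. It measured 1.65, 1.10 and 1.60 in lung, a mean of 1.45 ± 0.30 (SD, n = 3) or 2.74-fold (limma's adjusted p = 0.00135). In marrow it measured 0.59, 0.58 and -0.36, a mean of 0.27 ± 0.54 (adjusted p = 0.37). Every lung value exceeded every marrow value, and in marrow replicate 3 went against the others. The tissue difference of 1.18 passed (adjusted p = 0.0278) but not without bone marrow replicate 2 (adjusted p = 0.056), lung replicate 1 (0.0623) or lung replicate 3 (0.0646), with scaling between arrays (0.123) or with the scanner's processed signals (0.108).

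The 3 remaining tested genes of the cluster passed in neither tissue. Clec4d, the gene of MCL, measured 0.60 ± 0.42 in lung and 0.48 ± 0.67 in marrow (SD, n = 3 each), and Clec4e, the gene of Mincle, 0.46 ± 0.53 in lung and 0.50 ± 0.43 in marrow. Both receptors bind mycobacterial glycolipids. On 5 of 6 arrays each was above 0, yet the spread between arrays was of the size of the mean. The lung value of Clec4d passed without bone marrow replicate 3 (adjusted p = 0.0327 by limma) and that of Clec4e without lung replicate 1 (0.0191). Clec4b2 measured 0.31 ± 0.25 in marrow and was above background on 1 of 3 arrays in treated lung and on 0 of 3 in mock lung.

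**Figure D2:**
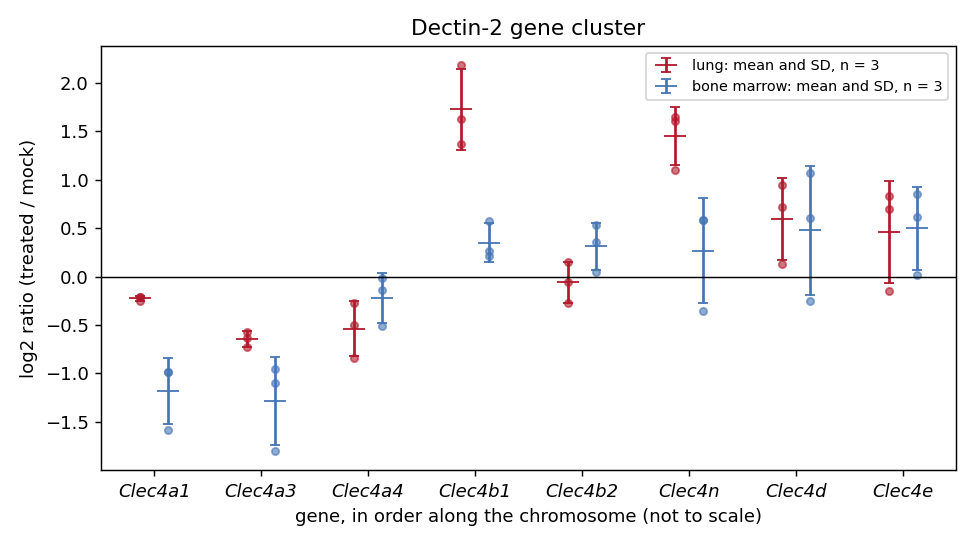
Log2 ratio of treated over mock for the 8 tested genes of the dectin-2 cluster in their order along chromosome 6. Points are arrays, dashes with whiskers the mean and SD of 3 arrays. Clec4a1, Clec4a3 and Clec4a4 are below 0 in both tissues, and the lung values of Clec4b1 and Clec4n, from 1.10 to 2.18, lie above all their marrow values.

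The dectin-1 cluster had 6 tested genes, of which 2 rose and 1 fell in treated lung and 1 rose in treated marrow. Its median log2 ratio was 0.27 in lung and 0.02 in marrow. Among all genes, 20.0% rose and 14.0% fell in lung, and 7.25% rose and 7.14% fell in marrow. Clec1b encodes CLEC-2, the podoplanin receptor of platelets, found also on some myeloid cells. Its lung ratios were 1.87, 0.93 and 1.22, a mean of 1.34 ± 0.48 (SD, n = 3) or 2.53-fold (limma's adjusted p = 0.00101), and its marrow ratios 0.28, 0.38 and -0.02, a mean of 0.21 ± 0.20 (adjusted p = 0.413). The lung values lay above all marrow values. In lung its other 2 probes measured 1.13 ± 0.45 and 0.71 ± 0.40, all 3 probes passing. The tissue difference of 1.13 (adjusted p = 0.0195) was lost without bone marrow replicate 1 (0.0591), 2 (0.0572) or 3 (0.0611) and with the scanner's processed signals (0.324), and for the third probe it did not pass (0.104).

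Of the platelet and megakaryocyte markers, which share CLEC-2, 2 of 7 tested rose in treated lung and 1 fell, or 0 without lung replicate 1, with a median log2 ratio of 0.03. Pf4 rose by 3.04 and Ppbp by 2.25 on the log2 scale. Itga2b measured -0.07 ± 0.09 and Gp1bb 0.03 ± 0.04 in lung (SD, n = 3), and Gp5 was not well above background. The summed intensity of the list was 25892 to 39392 in treated lung and 4249 to 5282 in mock lung. The part of platelet RNA in the Clec1b result was not tested.

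Clec1a, the gene of a receptor for fungal melanin that endothelial cells also carry, measured 0.44, 0.42 and 0.92 in lung, a mean of 0.59 ± 0.28 (SD, n = 3) with limma's adjusted p = 0.00618. It was above background on 0 of 3 marrow arrays in either dye. The lung call was lost with the scanner's processed signals (adjusted p = 0.185). Clec12a, the gene of an inhibitory receptor for urate crystals, measured -0.36, -0.34 and -0.15 in lung, a mean of -0.28 ± 0.11 (adjusted p = 0.0187), and -0.17 ± 0.11 in marrow (adjusted p = 0.137). All 6 values were negative and the tissues overlapped. Its lung call was lost without lung replicate 1 (0.0745) or 2 (0.0986), and with the processed signals its lung ratio was -1.18.

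Clec9a encodes DNGR-1, by which cross-presenting dendritic cells sense the actin of dead cells. In treated marrow it was above background on 3 of 3 arrays, against 0 of 3 in mock marrow. Its log2 ratios were 0.21, 0.65 and 0.64, a mean of 0.50 ± 0.25 (SD, n = 3) or 1.41-fold (limma's adjusted p = 0.0479). For genes below background on 1 side a bound, written as at least, was made. It sets the treated mean against the higher, array by array, of the mock signal and the lowest signal well above background. For Clec9a this bound was the mean ratio itself. With the processed signals the ratio was 2.27. The call was lost without bone marrow replicate 1 (adjusted p = 0.0557), 2 (0.234) or 3 (0.183), without lung replicate 2 (0.0824) and with no filter on dim probes (0.0537). In lung Clec9a measured 0.31 ± 0.33 (adjusted p = 0.12). Of the markers of conventional dendritic cells 2 of 8 tested rose in treated marrow, Cd24a by 1.05 and Irf8 by 0.38 on the log2 scale. The Irf8 call was lost without bone marrow replicate 2 or 3 or lung replicate 2 or 3 (adjusted p of 0.0676 to 0.248). Flt3 measured -0.31 ± 0.26 in marrow, and Xcr1 was not well above background. The summed intensity of that list was 26252 to 36806 in treated marrow and 21188 to 28301 in mock marrow. Its part in the Clec9a value was not tested.

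Clec7a, the gene of dectin-1, the receptor for fungal beta-glucan, passed in neither tissue. It measured 0.41, 0.10 and 0.19 in lung, a mean of 0.23 ± 0.16 (limma's adjusted p = 0.353), and -0.37, -0.01 and -1.08 in marrow, a mean of -0.49 ± 0.54 (adjusted p = 0.101). All lung values were above 0 and all marrow values below it. The tissue difference of 0.72 did not pass (adjusted p = 0.091), which does not show that the tissues responded alike. Clec12b, an inhibitory receptor gene, was above background on 2 of 3 arrays of treated lung and nowhere else.

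Of the Clr family, whose products are ligands of NKR-P1 receptors, 1 of 4 tested genes rose in each tissue, Clec2g in both. The share of all genes that rose was 20.0% in lung and 7.25% in marrow. The family's median log2 ratio was 0.17 in lung and 0.25 in marrow. Clec2g measured 0.39, 0.57 and 0.62 in lung, where mock cells were above background on 0 of 3 arrays and treated cells on 3 of 3, a level at least 1.37-fold higher (limma's adjusted p = 0.00559). In marrow it measured 0.55, 0.94 and 0.48, a mean of 0.65 ± 0.25 (SD, n = 3, adjusted p = 0.00772), with mock cells above background on 1 of 3 arrays. All 6 values were above 0 and the tissues overlapped, with a difference of -0.13 ± 0.14 (SE, adjusted p = 0.544). Among the alternatives run, median centring alone ended the Clec2g calls, and with the processed signals the log2 ratio was 3.36 in lung and 2.47 in marrow.

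Clec2d encodes Clr-b, the ligand of the inhibitory receptor NKR-P1B. It measured 0.29 ± 0.38 in lung and -0.37 ± 0.35 in marrow (SD, n = 3 each), all marrow values being negative, and the tissue difference of 0.66 passed only without lung replicate 3 (limma's adjusted p = 0.0356, against 0.094 with all arrays). Clec2i, the gene of Clr-g, measured -0.09 ± 0.37 in lung and 0.29 ± 0.36 in marrow. Clec2e measured 0.06 ± 0.07 in lung and 0.20 ± 0.12 in marrow. With the scanner's processed signals the marrow ratio of Clec2e became 1.71 (adjusted p = 0.00103), and mock marrow was above background on 0 of 3 arrays.

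Of the 3 genes grouped with the asialoglycoprotein receptor, 2 rose in treated lung and 0 passed in marrow. Of all genes 20.0% rose in lung, and 14.4% passed in marrow. Clec4f is in mice a receptor of Kupffer cells, the macrophages of the liver. Its lung ratios were 1.16, 1.66 and 0.79, a mean of 1.20 ± 0.44 (SD, n = 3, limma's adjusted p = 0.000917). Treated lung was above background on 3 of 3 arrays and mock lung on 1 of 3, and treated lung alone brought the gene past the filter. The size of the ratio was therefore not settled, and with the scanner's processed signals it was 2.85. In marrow Clec4f was above background on 0 of 3 arrays in either dye, so that its marrow ratio compares signals below background. The tissue difference of 1.24, which has no measured marrow response behind it, passed (adjusted p = 0.00873) but not with scaling between arrays (0.0566).

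Clec10a encodes MGL1, a galactose-type lectin of macrophages and dendritic cells. It measured 0.97, 0.33 and 0.33 in lung, a mean of 0.55 ± 0.37 (SD, n = 3, limma's adjusted p = 0.0121), and -0.05 ± 0.04 in marrow (adjusted p = 0.817). The lung values all exceeded the marrow values, with lung replicate 1 the highest. In a separate fit of the lung arrays the call was lost (adjusted p = 0.057), and the tissue difference of 0.60 passed without lung replicate 1 (0.0338), with scaling between arrays (0.0496) and in the authors' deposited matrix (0.0481), though not otherwise (0.0573). Clec4g, the gene of LSECtin of sinusoidal endothelium, measured -0.12 ± 0.27 in lung.

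In treated lung the macrophage markers rose beside Clec4f and Clec10a, and beside Clec4b1 and Clec4n of the dectin-2 cluster. All 10 tested rose in treated lung, with a median log2 ratio of 2.14, and in treated marrow 0 rose and 1 fell, a call lost without any array but lung replicate 1, without which 2 fell. Adgre1, the F4/80 antigen, rose by 1.06 and C1qa, a complement subunit, by 2.33 on the log2 scale in lung. The list's summed intensity was 154634 to 210610 in treated lung and 34589 to 50178 in mock lung. Between the mock tissues 9 of the 10 markers were higher in lung and 0 lower. Clec10a was lower in mock lung, at 0.728 times the marrow level, and Clec4f did not pass (limma's adjusted p = 0.209). Clec4n was 17.3-fold and Clec4b1 2.07-fold higher in mock lung. Of 10 alveolar macrophage markers 9 rose and 0 fell in treated lung, at a median log2 ratio of 1.20, and 1 rose in treated marrow. The part of a larger macrophage share in the Clec4f, Clec10a, Clec4b1 and Clec4n results was not tested.

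Outside these groups, Clec5a and Clec14a rose in treated lung. Clec5a encodes MDL-1, a myeloid receptor that signals through the adaptor DAP12. It measured 0.24, 0.22 and 0.46 in lung, a mean of 0.31 ± 0.13 (SD, n = 3, limma's adjusted p = 0.0101), and 0.07 on each marrow array to within 0.01. No lung value overlapped the marrow values. With the scanner's processed signals the marrow ratio of Clec5a became 0.70 and passed (adjusted p = 0.0132). Mock marrow was above background on 2 of 3 arrays. The lung call was lost without lung replicate 3 (adjusted p = 0.0696).

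Clec14a encodes an endothelial protein that binds Mmrn2 of the vascular matrix. It measured 1.07, 0.61 and 1.01 in lung, a mean of 0.90 ± 0.25 (SD, n = 3) or 1.86-fold (limma's adjusted p = 0.000717), and was above background on 0 of 3 marrow arrays in either dye. The tissue difference of 0.79 passed (adjusted p = 0.0124), though no marrow response was measured. A second, dimmer probe measured 0.36 ± 0.22 in lung and did not pass the difference (0.186). The endothelial markers moved with Clec14a and Clec1a, as 7 of 8 rose in treated lung at a median log2 ratio of 0.95, with Pecam1 at 0.74 ± 0.10 and Cdh5 at 0.98 ± 0.21. Their summed intensity was 23434 to 29742 in treated lung and 10591 to 14037 in mock lung, and their part in these results was not tested.

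The 3 other tested genes passed in neither tissue in the reported fit. Clec3b, the gene of the plasma protein tetranectin, measured -0.05 ± 0.11 in lung and -0.24 ± 0.14 in marrow (SD, n = 3 each). Its marrow ratio passed with the scanner's processed signals, at -0.75 (limma's adjusted p = 0.00547). It also passed with background from negative control spots, at -0.30 (adjusted p = 0.0182). Clec11a, the gene of a growth factor of the bone marrow, measured -0.01 ± 0.12 in lung and 0.09 ± 0.15 in marrow. Clec16a, whose product acts in the removal of mitochondria rather than as a sugar receptor, measured 0.25 ± 0.17 in lung and -0.09 ± 0.20 in marrow. A second, dimmer Clec16a probe, above background on 0 of 3 lung arrays in either dye, measured -0.002 in lung and 0.14 in marrow. With background from negative control spots Clec16a passed in lung (limma's adjusted p = 0.0322) and in the tissue difference (0.0451).

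The test of the difference between the tissues called 6 of the 26 Clec genes, all with a higher ratio in lung, against 15.2% of all genes called, 9.78% as higher and 5.46% as lower. They were Clec4b1, Clec4f, Clec4n, Clec1b, Clec4a1 and Clec14a. Clec4f and Clec14a were well above background on 0 of 3 marrow arrays in either dye and entered the test through lung alone, so that their marrow response was not measured and a difference in response was measured for the other 4. For 5 of the 6 the lung ratio was positive, and for Clec4a1 it was the less negative of the pair. The median difference, lung minus marrow, was 0.21 for the 26 genes and 0.00 for all genes. The 3 arrays of lung lay above the 3 of marrow without overlap for 13 genes and below them for 0, against 21.6% of all genes above and 18.7% below. Among the 13 were Clec1a, Clec4f and Clec14a, each above background on 0 of 3 marrow arrays in either dye. For them the separation is not a measured difference in response. With the scanner's processed signals 7 genes passed, 4 higher and 3 lower in lung, against 18.4% of all genes at that setting. With median centring 0 passed, 6 of the 26 being at an unadjusted p under 0.05, while over all genes 33 passed.

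Mock cells of the tissues already differed. Between mock lung and mock marrow 20 of 26 Clec genes passed, 13 higher and 7 lower in lung, against 66.0% of all genes, 29.6% as higher and 36.3% as lower. With the scanner's processed Cy3 signals, set to the 75th percentile of each array, 15 were higher and 5 lower, against 65.5% of all genes called, and the median log2 difference of the 26 genes was 1.04, against 0.26 in the reported fit. At that setting the log2 difference was 1.76 for Clec7a, 4.82 for Clec4n, 2.39 for Clec1b and -1.87 for Clec11a, each over 1.5 times further from 0 in fold than the values given here. Clec7a had normalised log2 Cy3 levels of 14.13, 14.01 and 14.14 in mock lung and 13.05, 12.75 and 12.95 in mock marrow, 2.26-fold higher in lung (limma's adjusted p = 1.86e-05). Clec4a1 had 13.35, 13.71 and 13.63 in mock lung and 12.20, 12.17 and 12.35 in mock marrow, 2.50-fold higher. Clec4a3 had 12.35, 12.60 and 12.55 in mock lung and 11.38, 11.37 and 11.46 in mock marrow, 2.13-fold higher. For each of the 3 genes the lung and marrow values did not overlap. Cell type markers also differed between the mock tissues. Of 10 macrophage markers 9 were higher and 0 lower in mock lung, at a median log2 difference of 2.12. Of 10 alveolar macrophage markers 7 were higher and 2 lower. Of 9 neutrophil markers 0 were higher and 7 lower, at a median of -2.98, and of 7 monocyte markers 0 were higher and 3 lower. The part of these cell types in the mock differences of the Clec genes was not tested.

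In the reported fit, the largest tissue differences in mock cells were in 3 receptor genes coupled to FcRγ. Clec4n had log2 levels of 12.96, 12.73 and 12.81 in mock lung and 8.81, 8.82 and 8.52 in mock marrow, 17.3-fold higher in lung. Clec4d had 12.74, 12.16 and 12.07 in mock lung and 9.44, 9.09 and 9.17 in mock marrow, 8.52-fold higher. Clec4e had 12.66, 12.13 and 11.89 in mock lung and 10.62, 10.55 and 10.53 in mock marrow, 3.16-fold higher. All 3 genes passed limma's test with no overlap between tissues. Clec4b1 was 2.07-fold and Clec1b 2.18-fold higher in mock lung. In that fit Clec1a was at least 2.29-fold and Clec14a at least 2.15-fold higher in mock lung, both being below background in marrow. Over the alternatives run, the log2 difference ranged from 1.045 to 4.145 for Clec1a and from 0.70 to 4.55 for Clec14a. That of Clec4d ranged from 2.85 to 3.62 and that of Clec4e from 1.43 to 2.06, so the order of genes depended on the setting. The second probe of Clec14a was above background on 0 of 3 mock lung arrays.

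Of the 7 genes lower in mock lung, Clec2i had log2 levels of 8.61, 8.79 and 8.88 in lung and 10.62, 10.04 and 10.15 in marrow, 0.351 times the marrow level. In the reported fit Clec4b2 was at least 2.35-fold lower in mock lung, where it was below background on all 3 arrays. Clec2g was in that fit lower in mock lung by at least 1.57-fold, though above background on only 1 of 3 mock marrow arrays. Over the alternatives run, the log2 difference ranged from -4.35 to -0.99 for Clec4b2 and from -3.14 to -0.34 for Clec2g. Clec10a had 10.23, 10.56 and 10.89 in mock lung and 10.96, 10.97 and 11.13 in mock marrow, 0.728 times the marrow level (limma's adjusted p = 0.0309). The Clec10a values of the tissues came close without overlapping, and the call was lost without any 1 of bone marrow replicates 1, 2 or 3 or lung replicate 2 (adjusted p of 0.0633 to 0.101) and with the processed Cy3 signals (0.459). Clec11a, Clec12a and Clec5a were the others, at 0.638, 0.849 and 0.845 times the marrow level, and the Clec5a call was lost with the processed Cy3 signals (adjusted p = 0.123).

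**Figure D3:**
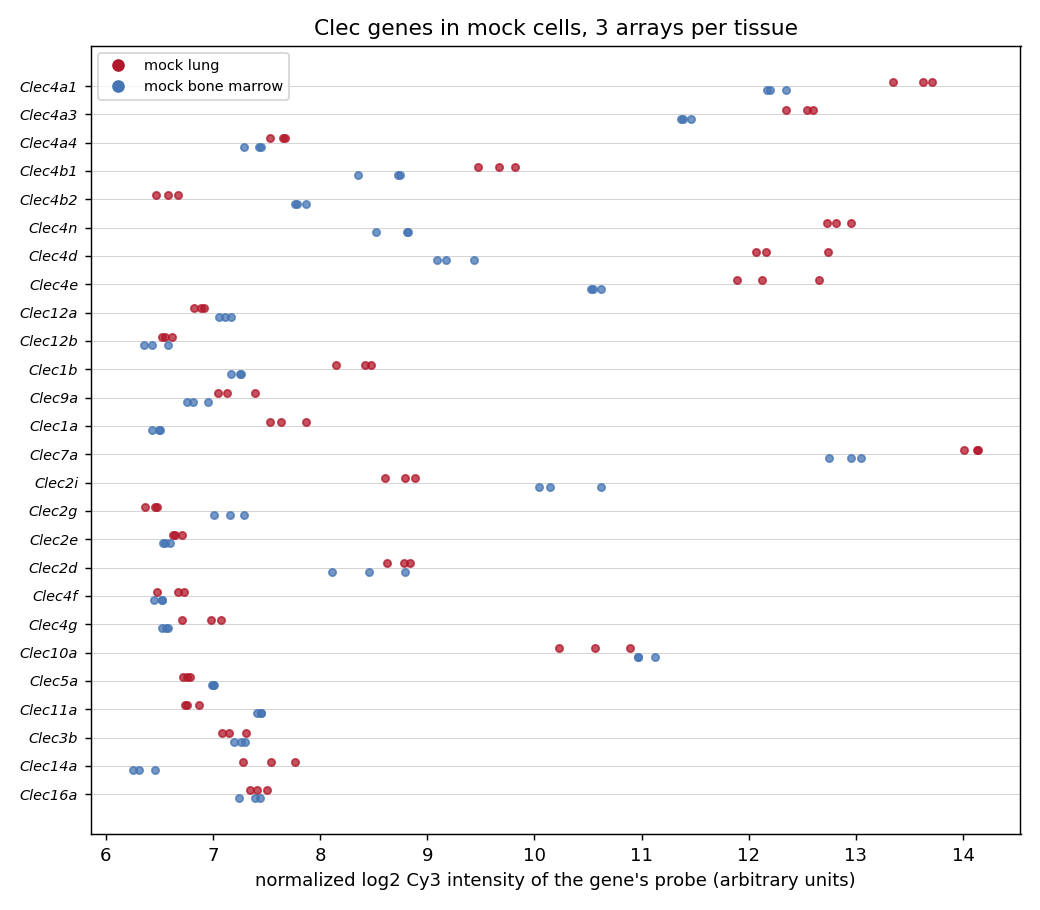
Normalised log2 Cy3 intensity of the 26 Clec probes in mock lung and mock bone marrow, 1 point per array. Levels may be compared within a row and not between rows, since probes differ in brightness. Clec4n, Clec4d and Clec4e show the widest gaps, with lung to the right, and Clec2i and Clec4b2 lie to the left in lung.

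The genes that carry signals from these receptors were a list of 18, all tested. Of all genes tested, 7.25% rose and 7.14% fell in treated marrow, and 20.0% rose and 14.0% fell in treated lung. In treated marrow 9 fell, 0 rose and 9 did not pass, with a median log2 ratio of -0.38 against 0.02 for all genes, and with median centring the sign of that median turned to 0.10, or -0.10 relative to all genes, with 0 called. In treated lung 2 rose, 3 fell and 13 did not pass, with a median of -0.15, which with median centring turned to 0.10, or -0.02 relative to all genes. Without bone marrow replicate 1 the marrow count dropped to 3, without bone marrow replicate 3 to 4, and without lung replicate 2 or with scaling between arrays to 5. In lung scaling left 1 higher and 1 lower. Fcer1g, the FcRγ adaptor, measured -0.56, -0.39 and -0.93 in marrow, a mean of -0.63 ± 0.28 (limma's adjusted p = 0.00947), and -0.12 ± 0.05 in lung (adjusted p = 0.392). All 3 marrow values were below all lung values. Plcg2, a phospholipase downstream of Syk, fell in both tissues, by 0.50 in lung and 0.54 in marrow on the log2 scale.

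Syk itself measured -0.43 ± 0.23 in marrow (limma's adjusted p = 0.0199), lost without bone marrow replicate 1 (0.0554) or 3 (0.0576), and 0.11 ± 0.03 in lung. Ptpn6, the gene of the phosphatase Shp1, measured -0.62 ± 0.35 in marrow (adjusted p = 0.0169), lost without bone marrow replicate 1 (0.0525). Card9, the adaptor that links Syk to NF-kB, fell by 0.56 in lung on the log2 scale (adjusted p = 0.00831), a call lost with scaling between arrays (0.161). Inpp5d, the gene of the lipid phosphatase SHIP1, rose by 0.49 in lung (adjusted p = 0.0038), and Ptpn11, the gene of the phosphatase Shp2, by 0.32 (0.00989), the last lost with the processed signals (0.0647) and with scaling (0.0595).

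**Figure D4:**
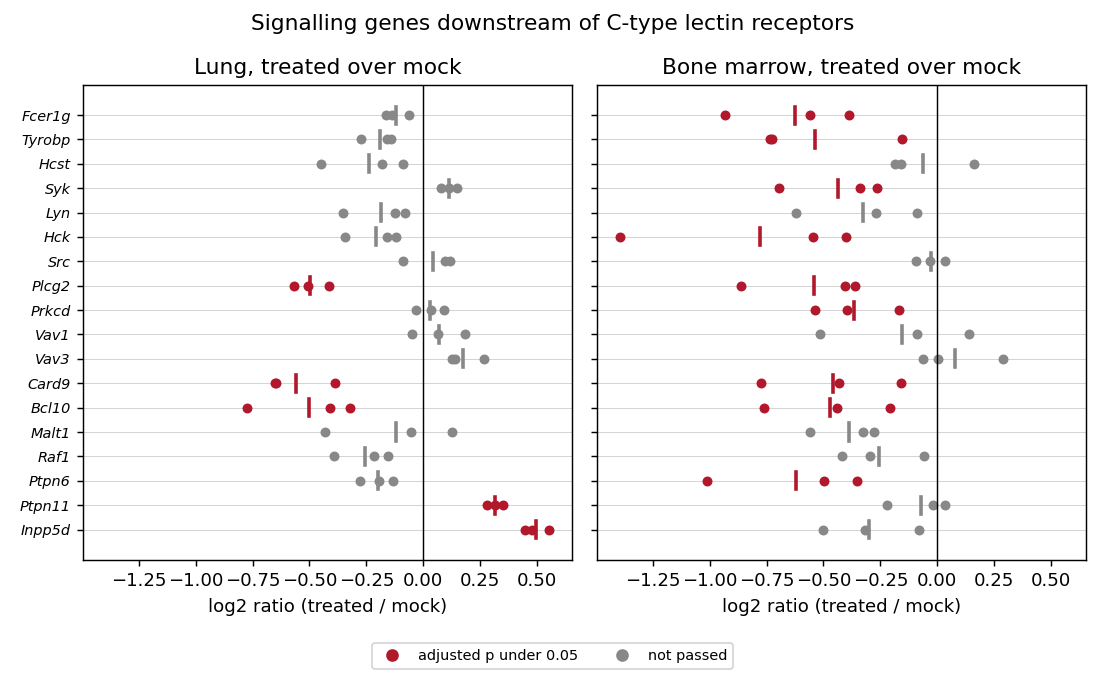
Log2 ratio of treated over mock for 18 signalling genes downstream of the receptors, in lung and bone marrow. Points are the 3 arrays, bars the mean, red marks genes at an adjusted p under 0.05. In marrow 9 genes are red and lie left of 0, and in lung Inpp5d and Ptpn11 lie right of 0 while Plcg2, Card9 and Bcl10 lie left.

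Of 8 ligands and counter-receptors, 5 rose and 0 fell in treated lung, with a median log2 ratio of 0.85, and in treated marrow 1 rose and 1 fell. The shares of all genes that rose and fell were 20.0% and 14.0% in lung and 7.25% and 7.14% in marrow. Klrb1b, the gene of NKR-P1B, which sees the Clec2d product, measured 2.08, 2.05 and 1.84 in lung, a mean of 1.99 ± 0.13 (SD, n = 3, limma's adjusted p = 1.12e-05), and was above background on 0 of 3 marrow arrays in either dye. Pdpn, the gene of podoplanin, the ligand of CLEC-2, measured 1.84, 1.65 and 2.33 in lung, a mean of 1.94 ± 0.35 (adjusted p = 0.0001), and was below background in marrow likewise. All of these lung values were far above 0. Klrb1a, another NKR-P1 gene, rose by 1.29 and Mmrn2, the ligand of the Clec14a product, by 0.73 on the log2 scale in lung. Markers of other cells were measured beside these. Of the lung epithelium markers 6 of 8 rose and 0 fell in treated lung at a median log2 ratio of 1.77, with a summed intensity of 60207 to 93017 in treated lung and 16097 to 30233 in mock lung. Of the NK and T cell markers 0 of 9 rose and 5 fell in treated lung, with a summed intensity of 2441 to 3268 in treated lung and 3888 to 4250 in mock lung. Without lung replicate 1 that count was 7, and without lung replicate 2 or 3 it was 3. The part of either cell type in the Pdpn, Klrb1a and Klrb1b values was not tested. In marrow Klrb1f, the gene of NKR-P1F, a receptor for Clr-g, rose by 0.72 (adjusted p = 0.025), a call lost without bone marrow replicate 2 (0.114) or 3 (0.11). Sap130, whose nuclear protein is a Mincle ligand when released from dead cells, fell by 0.38 in marrow (adjusted p = 0.0306), lost without bone marrow replicate 1 (0.111) or 2 (0.15) or lung replicate 2 (0.0537) and with scaling between arrays (0.0894).

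C-type lectin genes under other names were also read, 31 tested of 35 listed. Among all genes tested, 20.0% rose and 14.0% fell in treated lung, and 7.25% rose and 7.14% fell in treated marrow. In treated lung 12 rose, 2 fell and 17 did not pass, with a median log2 ratio of 0.18 beside 0.27 for the Clec genes. Mrc1, the mannose receptor, rose by 2.78, Mgl2, a galactose-type lectin, by 1.37, Asgr2, a subunit of the asialoglycoprotein receptor, by 1.26 and Sftpa1, a collectin of the alveolar lining that is also among the lung epithelium markers, by 2.32 on the log2 scale. In treated marrow 5 rose and 2 fell, with a median of -0.01. Without bone marrow replicate 1 or lung replicate 2 these became 1 and 1, without bone marrow replicate 2 they became 0 and 1, without bone marrow replicate 3 they became 1 and 0, without lung replicate 1 they became 6 and 4, and without lung replicate 3 they became 3 and 2. Cd302 fell there by 0.59 (limma's adjusted p = 0.0283), lost without bone marrow replicate 1 (0.0978) or 3 (0.121) and with scaling between arrays (0.0547). Layn rose by 0.44 (adjusted p = 0.0351), lost without any 1 marrow array or lung replicate 2 (0.0591 to 0.0952) and in a separate fit of marrow (0.052). Klrd1 was higher in treated marrow (adjusted p = 0.0134), with mock marrow below background on all arrays, and was lost without bone marrow replicate 2 (0.075) or 3 (0.064). Pla2r1 was lower (adjusted p = 0.0284), with treated marrow below background on all arrays, and was lost without bone marrow replicate 2 (0.155) or 3 (0.1) or lung replicate 2 (0.0579) and in a separate fit (0.0531).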

How the data were processed

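Gene expression was measured on 6 two-colour Agilent arrays. The deposited files of each array hold raw and processed spot intensity values and a log10 ratio of the processed values, made with Agilent Feature Extraction 10.7.3.1 per the file headers. The deposited matrix holds log2 ratios that the authors made with limma, per the submitters' processing notes, with settings not given in the sources used here. Its headings name mock over treated, whereas its values correlated with Cy5 over Cy3 at r of 0.986 to 0.997, so the dyes were followed.

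Mean signals were corrected with normexp (offset 50) and loess in limma 3.58.1 (R 4.3.3), with control spots at weight 0 and outlier spots left out. Negative control spots in Cy5 then had a median of 240.3 on replicate 1 of marrow and 87.0 on replicate 2 of lung, against 13.3 to 16.0 on the others. A probe was kept if, in any of 4 combinations of tissue and dye, 2 or more arrays were well above background, and each gene was read by its brightest probe. A mean per tissue was fitted to all 6 arrays, with Benjamini-Hochberg adjustment over 22097 genes. Mock levels were compared on Cy3 after Aquantile. The fit was tested on simulated data. A ± is the SD of 3 arrays unless named otherwise. Same-numbered arrays deviated together at r of 0.00, 0.12 and 0.05, so the numbers were not taken as pairs.

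The Clec genes and all lists were chosen with earlier results of these data known. Arrays were given per gene for members that passed in a tissue or in the difference and for the 5 brightest in mock cells. Up to 4 genes of smallest p per tissue were named from other lists, and the first 2 on the array from marker lists. Other genes named are marked so or were added to show a list's spread. Protein sequences were not used here.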

Additional observations from a re-analysis of the deposited data

Results flagged for a closer look

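Limma's test of the difference in treated over mock ratio between the tissues called 6 Clec genes. The log2 ratio in lung minus that in marrow was 1.37 for Clec4b1, 1.24 for Clec4f, 1.18 for Clec4n, 1.13 for Clec1b, 0.96 for Clec4a1 and 0.79 for Clec14a. Clec4f and Clec14a were well above background on 0 of 3 marrow arrays in either dye, so for them no marrow response was measured. Tissue and slide cannot be told apart in these values.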

How the results depend on the processing

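With median centring in place of loess, limma called 0 Clec genes in marrow (8 at an unadjusted p under 0.05), 5 in lung and 0 for the tissue difference (6 at an unadjusted p under 0.05). Of all genes, that setting called 0 in marrow, 964 in lung and 33 for the difference. The cause was not tested. With the scanner's processed signals marrow calls were 8, with 5 higher and 3 lower, all 4 reported calls among them, against 29.3% of all genes called at that setting. With background from negative control spots calls were 6 in marrow, 14 in lung and 8 for the difference. The shares of all genes called there were 27.8%, 35.9% and 21.5%. In the authors' deposited matrix calls were 4 in marrow, 12 in lung and 8 for the difference, against 13.7%, 33.5% and 15% of all genes. Leaving out 1 array in turn gave 3 to 5 calls in marrow, 10 to 14 in lung, 4 to 6 for the difference and 15 to 20 between mock cells. The share of all genes called then ranged from 4.5% to 18.5% in marrow and from 23.3% to 35.2% in lung. It ranged from 6.81% to 12.9% for the difference and from 57.9% to 64.6% between mock cells. With the replicate block, 7 genes were called for the difference, Clec1a joining at an adjusted p of 0.0238, and 19 between mock cells, Clec4a4 being lost at 0.0716. Of all genes, that setting called 12.9% for the difference and 61.3% between mock cells. For Clec1a, above background on 0 of 3 marrow arrays in either dye, no marrow response was measured. The check of pairing found no link between same-numbered arrays. Signs turned with median centring for Clec4g in marrow (-0.0785) and in the difference (0.0048), for Clec4a1 in lung (0.0657) and for Clec2e in the difference (0.0076), none passing. Clec16a between mock cells ranged from -0.00014 (without bone marrow replicate 2) to 0.126 with 1 array left out and turned to -0.48 with the mean of both its probes (limma's adjusted p = 0.000733). No sign turned among the 42 gene results that passed in the reported fit. In mock cells the calls of Clec12a, Clec4a4, Clec4g, Clec5a and Clec9a were each lost without at least 1 array. Signals near background limit Clec1a, Clec2e, Clec2g, Clec4b2, Clec4f, Clec4g, Clec5a, Clec9a, Clec12b and Clec14a to bounds or to some arrays in at least 1 group.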
